A study of Homo sapiens with 4 samples.

Results

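Slits, Robo receptors, netrins and netrin receptors make up 10 of the 34675 genes in the authors' deposited table, matched there by gene symbol: SLIT2, SLIT3, ROBO1, ROBO2, ROBO4, NTN1, NTN4, DCC, NEO1 and UNC5B. They were picked with their values in this same comparison known, so those values are a description and no test is built on them. Per the labels, RNA came from MDA-MB-231, an established mesenchymal-like triple-negative breast carcinoma line, grown on plastic in medium with serum. A sample-identity check, taken up below, found that 1 of the 2 groups did not match this line. The vector group is a stable line that carries the empty pcDNA plasmid and the LKB1 group a stable line that carries pcDNA-FLAG-LKB1 wildtype, which encodes the STK11 kinase, with 2 libraries of each. The labels do not say whether the 2 libraries of a line came from separate cultures. Nor do they say whether a line is a clone or a pool. Any scatter behind the p-values is thus that of these 4 libraries alone, possibly a technical one. For most called genes of at least 200 reads the p-values correspond to nearly the same variation between libraries. Genes without a call were not examined in this way, so how far each gene's own scatter enters the p-values was not measured.

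Slits are secreted proteins that bind Robo receptors and, in the nervous system, turn growing axons away from a midline. Netrins are laminin-related secreted proteins that attract through DCC and its relative neogenin and repel through UNC5 receptors. The same genes act outside the nervous system in vessels and mammary epithelium, where SLIT2 and SLIT3 with ROBO1 and netrin-1 with neogenin help to hold the bilayer of the duct together. Without ligand, DCC and UNC5 receptors can start cell death.

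The table holds 1 fold, p-value and adjusted p-value per gene over the 4 libraries and no value per library. Read totals per line (sums over 2 libraries) were worked back from the folds, and the LKB1 line was 1.04 times as deep as the vector line. The header names no direction. STK11 had 1321 reads in 1 line and 2112 in the other (deposited log2 fold 0.62, adjusted p = 0.00105). Folds were read as LKB1 over vector because the line with more STK11 reads was taken to be the LKB1 line. Were the direction the other way round, the line names would change places in every level, share and fold given here. The STK11 call does not hold when a variation of 0.2 between libraries (a coefficient of variation) is assumed (adjusted p = 0.551). A sample-identity check found that 1 group of 2 failed to match MDA-MB-231 cells, which touches every difference below, and no library could be left out to test it. By title, 3 libraries have a common run tag and 1, from the LKB1 line, does not, and the LKB1 titles carry a different RNA term from the vector titles, so preparation and line cannot be told apart. All 6 markers listed for the named line (VIM, CD44, KRT8, KRT18, AXL and CAV1) had totals above the range that could be resolved, at deposited log2 folds of -0.26 to 0.64. AXL and CAV1 rose, and the other members of that list had no call.

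The stretches just before the listed starts of the 4 chosen genes with an adjusted p under 0.05 are shown first. Which of the starts is used in these cells was not measured. RefSeq (GRCh38.p14) listed starts for 8 of the 10 genes, and the 250 bases before each start are printed for SLIT2 (chr4:20251655-20251904, plus strand), NEO1 (chr15:73051652-73051901, plus strand), ROBO1 (chr3:79019460-79019709 and chr3:79767999-79768248, minus strand) and NTN4 (chr12:95790765-95791014 and chr12:95791156-95791405, minus strand). Capitals mark the TATA-like letters TATATA, the classical TATA box letters TATAAA, the GC box motif GGGCGG, the CREB-type site TGACG, the AP-1 site TGANTCA and the E-box CACCTG, searched on both strands; of 2 listed starts, the inner one lies further into the gene.
SLIT2: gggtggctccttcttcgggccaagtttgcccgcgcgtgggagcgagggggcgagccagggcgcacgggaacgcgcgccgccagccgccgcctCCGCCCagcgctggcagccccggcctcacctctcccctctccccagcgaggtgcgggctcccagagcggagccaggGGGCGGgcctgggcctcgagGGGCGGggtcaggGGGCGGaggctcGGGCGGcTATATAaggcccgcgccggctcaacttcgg
NEO1: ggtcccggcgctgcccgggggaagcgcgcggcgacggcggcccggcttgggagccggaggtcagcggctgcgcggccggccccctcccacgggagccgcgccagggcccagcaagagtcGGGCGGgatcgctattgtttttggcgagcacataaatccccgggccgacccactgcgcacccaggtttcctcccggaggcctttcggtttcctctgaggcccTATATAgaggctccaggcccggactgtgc
ROBO1, inner start: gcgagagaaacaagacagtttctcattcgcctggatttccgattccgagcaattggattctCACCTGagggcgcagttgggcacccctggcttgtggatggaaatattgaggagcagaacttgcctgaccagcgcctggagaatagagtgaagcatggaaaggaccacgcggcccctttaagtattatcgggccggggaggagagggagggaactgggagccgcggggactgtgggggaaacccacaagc
ROBO1, outer start: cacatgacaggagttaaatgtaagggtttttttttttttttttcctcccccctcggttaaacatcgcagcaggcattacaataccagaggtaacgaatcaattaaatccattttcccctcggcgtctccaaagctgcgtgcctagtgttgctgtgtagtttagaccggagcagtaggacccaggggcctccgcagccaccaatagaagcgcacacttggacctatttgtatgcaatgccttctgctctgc
NTN4, inner start: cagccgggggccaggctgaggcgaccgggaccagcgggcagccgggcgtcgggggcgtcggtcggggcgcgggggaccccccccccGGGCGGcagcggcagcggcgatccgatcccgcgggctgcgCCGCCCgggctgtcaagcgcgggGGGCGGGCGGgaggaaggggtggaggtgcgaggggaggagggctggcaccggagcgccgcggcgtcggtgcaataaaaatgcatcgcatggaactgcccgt
NTN4, outer start: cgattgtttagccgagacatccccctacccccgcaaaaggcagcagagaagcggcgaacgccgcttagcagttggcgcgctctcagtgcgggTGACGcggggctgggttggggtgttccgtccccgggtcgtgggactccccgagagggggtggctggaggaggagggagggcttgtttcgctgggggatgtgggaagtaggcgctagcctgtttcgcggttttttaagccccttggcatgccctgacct

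The motifs and base composition differed among these 4 genes. SLIT2 and NEO1 have the letters TATATA beginning 30 and 29 bases before the start, and 3.73% of all 35116 listed starts hold these letters in their 250 bases. SLIT2 has 5 GC boxes and the inner NTN4 start has 4, the last of which overlaps the one before it, whereas 42.6% of all starts have any. ROBO1 lacks both motifs at either start, and its inner start has an E-box (17.5% of all starts). The CREB-type site occurs once among the printed sequences, at the outer NTN4 start (21.2% of all starts), and TATAAA and the AP-1 site do not occur in them. G and C make up 77.2% of the bases for SLIT2 and 71.6% for NEO1, against 56.8% and 48.0% for the inner and outer ROBO1 starts and a median of 58.0% over all starts. CG dinucleotides number 30 in SLIT2, 28 in NEO1, 36 and 20 at the inner and outer NTN4 starts and 12 and 9 at the ROBO1 starts, where the median start has 11.

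Of the 10 genes, SLIT2, ROBO1, NTN4 and NEO1, 4 in number, had an adjusted p under 0.05, all lower in the LKB1 line, where 5.79% of all genes had a call and 3.24% a call as lower. Their choice used this contrast, so nothing is read from that count. With a minimum of 40 reads in total 6 genes are left (6.86% of all such genes were called lower), and with 200 reads 5 genes (5.83% lower and 6.20% higher), and the 4 calls lie among these 5. With a variation between libraries of 0.1 assumed the count was again 4, where 6.92% of all genes had a call, and with 0.4 it was 2, ROBO1 and NEO1, where 0.767% had one. The median deposited log2 fold of the 10 was -1.04, beside -0.04 for the 28242 genes with reads. By role the 4 called genes are a ligand and a receptor each of the Slit and netrin systems. Since they were picked with this contrast known, that make-up is a description and not a result about either system.

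**Figure D1:**
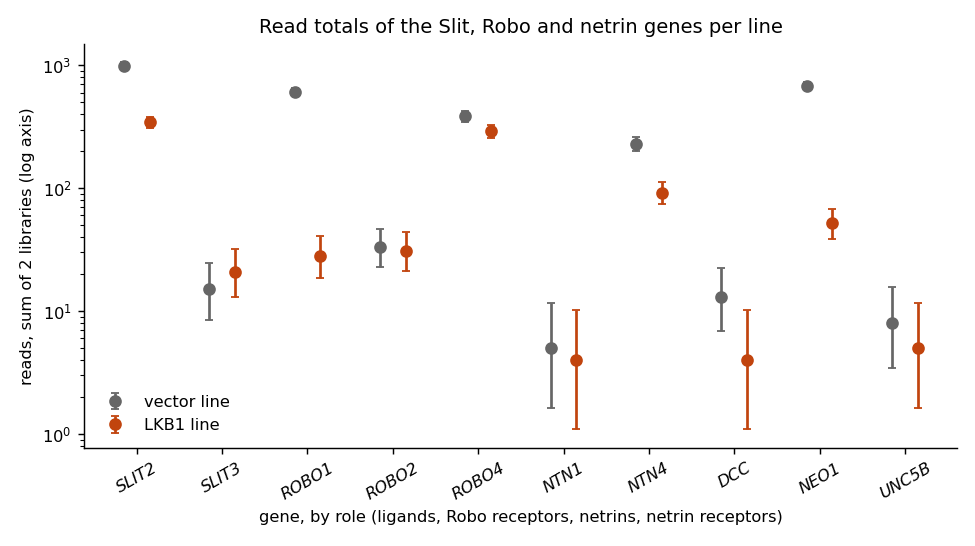
Read totals (sum of 2 libraries, log axis) of the 10 genes in the vector line (grey) and the LKB1 line (orange), with exact 95% Poisson intervals for counting error. ROBO1 (609 and 28 reads) and NEO1 (680 and 52) lie furthest apart, and SLIT3, ROBO2, NTN1, DCC and UNC5B have overlapping intervals.

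Of the Slit ligands, SLIT2 was the one with a sizeable read total. SLIT2 (ENSG00000145147.14, chromosome 4, 20254883 to 20622184, plus strand, hg19) had 993 reads in the vector line against 344 in the LKB1 line. Its deposited fold was 3.0-fold lower (log2 -1.58, SE 0.09 from counting alone and 0.30 with a variation of 0.2 between libraries assumed). SLIT3, a second ligand of the family (chromosome 5, 168088745 to 168728133, minus strand), had 15 and 21 reads, a ratio of 1.35 (exact counting interval 0.662 to 2.81). SLIT3 had no call, and its interval includes 1. SLIT1, the remaining Slit and not among the chosen genes, had 6 and 5 reads. Per kilobase of exon, SLIT2 held 98.4% of the Slit reads in the vector line against 94.6% in the LKB1 line, so the lower SLIT2 total was not offset by its relatives: the 3 Slits summed to 104 and 37.4 reads per kilobase.

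Of 5 other genes listed for Slit binding and processing, 2 rose and 1 fell, where 2.55% of all genes rose and 3.24% fell. Of the 4 with at least 40 reads 2 rose and none fell, where 5.77% of all such genes rose and 6.86% fell. GPC1, the heparan sulfate proteoglycan glypican-1 that binds Slits, rose from 365 to 886 reads (log2 1.22, adjusted p = 1.85e-11 in the authors' deposited table). TLL1, a tolloid-like protease of the family that cleaves Slits, fell from 33 to 5 reads (log2 -2.72, adjusted p = 0.00135). Its close relative BMP1 had 669 and 731 reads and the proteoglycan SDC1 had 1735 and 1508, neither with a call. ADAM10, a sheddase that cuts Robo receptors, rose by 0.54 on the log2 scale (adjusted p = 0.00529), a call that was lost at a variation of 0.2 (adjusted p = 0.782).

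Among the Robo receptors the difference lay in ROBO1. ROBO1 (ENSG00000169855.15, chromosome 3, 78646390 to 79816965, minus strand), a widely expressed Slit receptor, had 609 reads in the vector line against 28 in the LKB1 line. The deposited fold was 22.4-fold lower (log2 -4.49, counting SE 0.28, or 0.40 with a variation of 0.2), and the exact counting interval of the depth-scaled ratio ran from 15.5-fold to 34.3-fold lower. ROBO1 stood 4th in the whole table by p-value, and 15 of 11249 genes with at least 200 reads had a lower fold.

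ROBO2, next to ROBO1 on chromosome 3 (75955846 to 77699115, plus strand) and mainly neuronal, had 33 and 31 reads, a ratio of 0.904 in the deposited table. ROBO4 (chromosome 11, 124753587 to 124768396, minus strand), the Robo known from endothelium, had 386 and 290 reads (log2 -0.47). Its counting interval, 0.618 to 0.844, left out 1, but its adjusted p of 0.321 in the authors' deposited table gave no call. ROBO3, which guides commissural axons and is not among the chosen genes, ends 2.22 kb from ROBO4 on the opposite strand and had 73 and 81 reads (log2 0.09). The lower level was thus seen in ROBO1 and not in its chromosomal neighbour ROBO2, whose counting interval spans 0.535 to 1.52; the difference between these receptors was not tested.

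The make-up of the Robo family differed between the lines accordingly. Per kilobase of exon in the vector line, ROBO1 (56.0 reads per kilobase) and ROBO4 (54.9) had similar values and held 45.4% and 44.5% of the family. In the LKB1 line ROBO4 stood first at 41.2 reads per kilobase with 72.1%, and ROBO3 followed with 20.2%. ROBO1 had 2.57 reads per kilobase (4.5%), near ROBO2 at 1.86, and differences between genes were not tested. The family summed to 123 reads per kilobase under vector and 57.2 under LKB1.

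Since ROBO4 and UNC5B are best known from endothelium and ROBO2 and DCC from neurons, markers of both cell types are given beside them. Of 12 endothelial markers 10 were in the table and 7 fell with none rising, where 3.24% of all genes fell. All 7 are among the 9 with at least 40 reads, a depth at which 6.86% of all genes fell. The summed reads of the 10 were 2378 under vector and 670 under LKB1, and none was at 0 in either line. The 3 with the smallest adjusted p were ESAM, an adhesion molecule whose gene lies 103 kb from ROBO3, with 1197 and 129 reads, the co-receptor ENG with 172 and 22, and VWF, von Willebrand factor, with 203 and 25. The 3 without a call included EGFL7, which lay higher at 225 and 336 reads (log2 0.52). ERG had 77 and 43 reads and FLT1 5 and 1. ESAM alone gave 1197 of the summed vector reads, and EGFL7 336 of the summed LKB1 reads. Fewer cells of a type and less RNA per cell cannot be told apart in such bulk libraries. The list's median log2 fold was -2.90, and that of ROBO4 -0.47, and the part of these markers in any result here was not tested. Of 9 neuronal markers, in 10 entries because TUBB3 is listed under 2 identifiers, UCHL1 had 316 and 8 reads and both TUBB3 entries, whose loci overlap, had 1091 and 800 and 1051 and 773. These 3 entries fell and none rose. MAP2 had 61 and 103 reads and no call, and the neuron-restricted SNAP25, SYP, RBFOX3, GAP43, STMN2 and ELAVL4 had at most 19 reads in a line. Of 8 fibroblast markers 2 fell and none rose, with sums of 456 and 423 reads, and DCN and THY1 had none in either line.

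Netrin-4 was the measurable netrin among the chosen genes. NTN4 (ENSG00000074527.7, chromosome 12, 96051583 to 96184930, minus strand), a basement membrane netrin, had 230 reads in the vector line against 92 in the LKB1 line. The deposited fold was 2.59-fold lower (log2 -1.38, counting SE 0.18, or 0.34 with a variation of 0.2). A longer non-coding transcript on the same strand, RP11-410A13.3, overlaps NTN4 and had 131 and 60 reads (log2 -1.18), and how reads shared by both were counted is not given in the sources used here, so both totals are uncertain. NTN1, the founding netrin-1 (chromosome 17, 8924859 to 9147317, plus strand), had 5 and 4 reads, with a counting interval of the ratio from 0.153 to 3.57. Netrin-1 was thus barely measured in either line.

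Of the other netrins, the 2 with at least 40 reads went the opposite way from NTN4. NTN5 rose from 15 to 53 reads (log2 1.75, adjusted p = 0.0213) and the membrane-anchored NTNG2 from 343 to 564 (log2 0.66, adjusted p = 0.00598) in the authors' deposited table. NTN3 had 2 and 0 reads and NTNG1 had 4 and 2. Per kilobase the netrins summed to 106 and 112 reads, with NTN4 at 52.1% and 19.7% of that sum, NTNG2 at 41.3% and 64.3%, and NTN5 at 4.54% and 15.2%. The largest contributor to the sum changed from NTN4 to NTNG2, which is not known to bind DCC or neogenin. The call of NTNG2 was lost with a variation of 0.2 assumed (adjusted p = 0.526).

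Neogenin was the only chosen netrin receptor with more than 20 reads. NEO1 (ENSG00000067141.12, chromosome 15, 73344051 to 73597547, plus strand), a receptor for netrins and for repulsive guidance molecules, had 680 reads in the vector line against 52 in the LKB1 line. The deposited fold was 13.5-fold lower (log2 -3.76, counting SE 0.21, or 0.36 with a variation of 0.2), with a counting interval of 10.2-fold to 18.4-fold. It stood 8th in the table by p-value, and 22 of 11249 genes with at least 200 reads had a lower fold.

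DCC (chromosome 18, 49866542 to 51057784, plus strand), the netrin-1 receptor first known as a gene lost in colorectal cancer, had 13 and 4 reads, a depth-scaled ratio of 0.296 (counting interval 0.0703 to 0.958) and no call. UNC5B (chromosome 10, 72972327 to 73062621, plus strand), a repulsive netrin receptor of vessels, had 8 and 5 reads, with an interval of 0.155 to 2.08. UNC5B had no call either. Of the netrin receptors outside the chosen genes, UNC5A had 2 and 0 reads, UNC5C 7 and 9, UNC5D 1 and 6 (ratio 5.77, counting interval 0.700 to 265), DSCAM 28 and 9 and its paralog DSCAML1 13 and 12. None of them had a call, and with NEO1 the only abundant receptor the family without DSCAML1 summed to 90.4 reads per kilobase under vector and 9.89 under LKB1. NEO1 made up 92.7% and 64.8% of these sums.

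**Figure D2:**
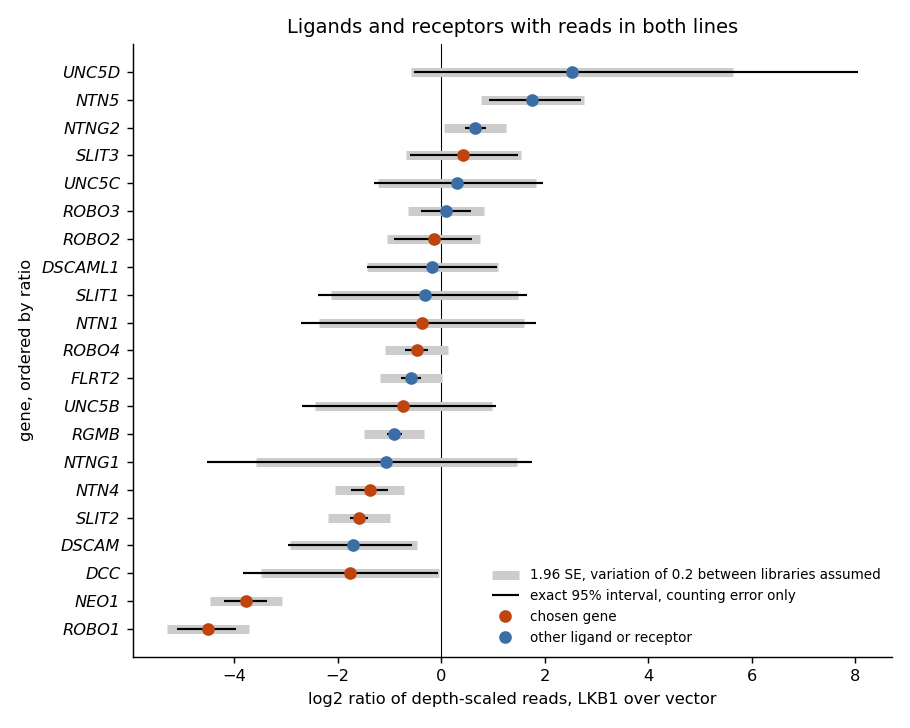
Log2 ratio of depth-scaled reads, LKB1 over vector, for the chosen genes (orange) and the other ligands and receptors (blue) with reads in both lines; black lines are exact 95% counting intervals and grey bars 95% ranges with a variation of 0.2 between libraries assumed. ROBO1 and NEO1 lie lowest, SLIT2 and NTN4 lie between -1 and -2, and most genes with few reads have intervals that cross 0.

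Of the other neogenin ligands and the receptor partners, only RGMB and FLRT2 had at least 40 reads, and both were lower. RGMB, a repulsive guidance molecule that binds neogenin and bone morphogenetic proteins, fell from 1138 to 632 reads (log2 -0.90, adjusted p = 1.69e-06 in the authors' deposited table). RGMA had 1 and 0 reads. FLRT2, a membrane protein that binds UNC5 receptors, fell from 532 to 371 (log2 -0.58, adjusted p = 0.0238), FLRT1 had 1 and 0 reads and FLRT3, a binding partner of ROBO1, had 4 and 0. The calls of RGMB and FLRT2 were lost with a variation of 0.2 assumed (adjusted p = 0.0893 and 0.767).

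Across the 67 other pathway genes in the table, 10 rose and 6 fell, where 2.55% of all genes were called higher and 3.24% lower. With at least 40 reads the calls were 15 of 53, against 12.6% of all genes of that depth, and with at least 200 reads 14 of 48, against 12.0%. The median deposited log2 fold of the 67 was 0.07. At an assumed variation of 0.2, 4 of the 67 had a call (GPC1, TLL1, NTN5 and DAPK1) against 2.51% of all genes, so the other 12 calls rest on the smaller variation behind the deposited p-values.

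Inside the cell, 2 of 22 Robo signalling proteins rose and 2 fell; all 4 are among the 21 with at least 40 reads, a depth at which 5.77% of all genes rose and 6.86% fell. PAK1, a kinase that acts on actin downstream of Rac, rose from 642 to 1157 reads (log2 0.79, adjusted p = 2.90e-05) and its adaptor NCK2 from 677 to 1162 (log2 0.72, adjusted p = 0.000273) in the authors' deposited table. VASP, an actin regulator, fell from 1241 to 853 reads (log2 -0.60, adjusted p = 0.00267). The Slit-Robo GTPase-activating proteins had no call: SRGAP1 had 929 and 816 reads, SRGAP2 938 and 1060 and SRGAP3 31 and 36. ABL1, the kinase that phosphorylates Robo, had 2290 and 2350 reads, and the VASP relative ENAH 1010 and 1049. The 4 calls of this group were each lost at a variation of 0.2.

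Among 24 signalling proteins of DCC, neogenin and UNC5, 4 rose and 1 fell, all of them among the 23 with at least 40 reads, where the same shares of all genes apply (5.77% and 6.86%). DAPK1, the death-associated kinase through which UNC5B can signal cell death, fell from 688 to 91 reads, 7.84-fold (log2 -2.97, counting SE 0.16, or 0.33 with a variation of 0.2, adjusted p = 1.27e-41 in the authors' deposited table). It kept a call with a variation of 0.4 assumed (adjusted p = 0.00135). MAGED1, a binding partner of UNC5A in cell death, rose from 541 to 1102 reads (log2 0.97, adjusted p = 7.19e-08) and ABLIM1, an actin-binding protein, from 2206 to 4196 (log2 0.87, adjusted p = 2.94e-07). The exchange factors TRIO and ARHGEF12 rose at log2 folds of 0.51 and 0.51 (adjusted p = 0.00878 and 0.00806). The calls of these genes other than DAPK1 were lost at a variation of 0.2, where MAGED1 had an adjusted p of 0.0519 and ABLIM1 of 0.0978. FYN, SRC, CDC42, DOCK1 and PTK2, which carry the netrin signal from DCC, had log2 folds between -0.38 and 0.14 and no call.

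**Figure D3:**
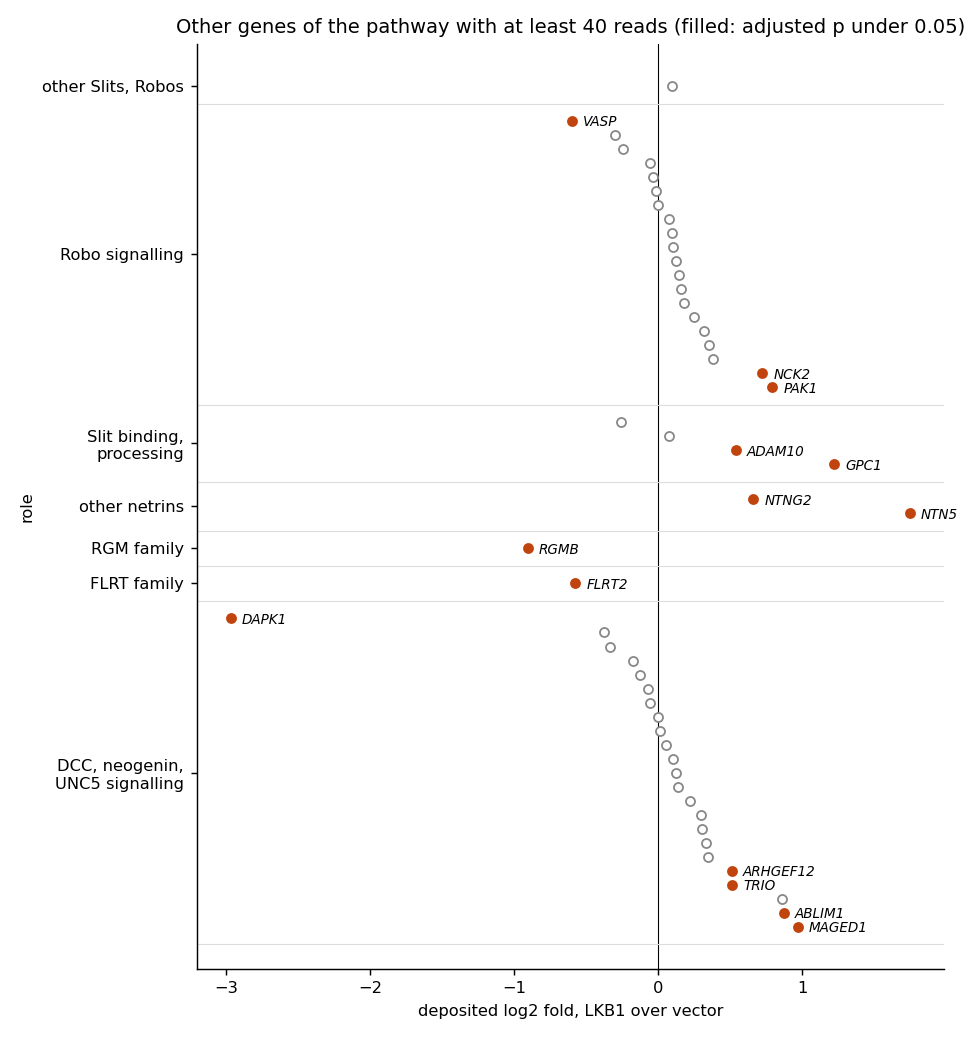
Deposited log2 fold, LKB1 over vector, of the other pathway genes with at least 40 reads, without 1 that is not reported, grouped by role on the vertical axis; filled points have an adjusted p under 0.05. DAPK1 at -2.97 is the lowest and NTN5 at 1.75 the highest.

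The lower totals of the 4 chosen genes with a call were not shared by most of their chromosomal neighbours. For each gene the nearest 10 protein-coding genes with at least 40 reads on either side were taken. Of all genes at that depth, 6.86% were called lower and 5.77% higher. The 20 neighbours of ROBO1 had a median log2 fold of 0.04, with 2 called lower and none higher. Those of NEO1 had a median of -0.02 (1 lower, 1 higher), those of SLIT2 -0.07 (0 lower, 1 higher) and those of NTN4 -0.07 (2 lower, 0 higher). Next to NTN4, the deubiquitinase gene USP44 was at -2.65.

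**Figure D4:**
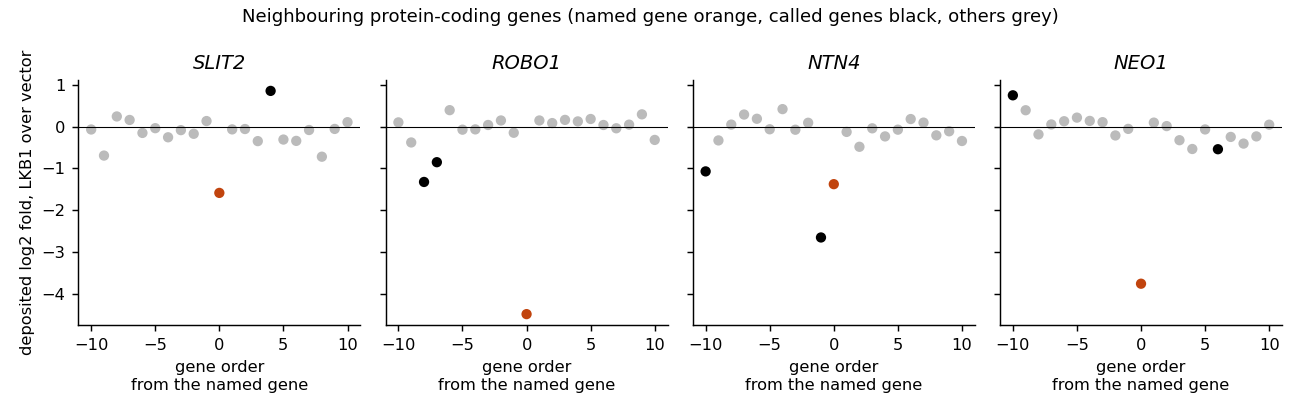
Deposited log2 fold of the 10 nearest protein-coding genes on each side of SLIT2, ROBO1, NTN4 and NEO1, in gene order; the named gene is orange, called genes are black and the rest grey. Most neighbours lie near 0, with USP44 at -2.65 below NTN4.

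Set among all genes with at least 200 reads, a group not matched to their own depth, the 4 genes differ in how far they stand out. By fold among the 11249 genes with at least 200 reads, 15 genes were lower than ROBO1, 22 lower than NEO1, 108 lower than SLIT2 and 126 lower than NTN4. For ROBO4 1017 genes were lower. Over 1171 called protein-coding genes with at least 200 reads, the p-values correspond to a median variation between libraries of 0.104. Percentiles 5 and 95 were 0.0956 and 0.142. Genes without a call were left out of that range. At like depth and fold, CDH1 (709 reads, log2 -0.69) had no call and RHBDF1 (768 reads, log2 -0.67) had one, so the variation was not the same for every gene. At an assumed variation of 0.4 the calls of ROBO1 and NEO1 remained and those of SLIT2 and NTN4 did not.

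**Figure D5:**
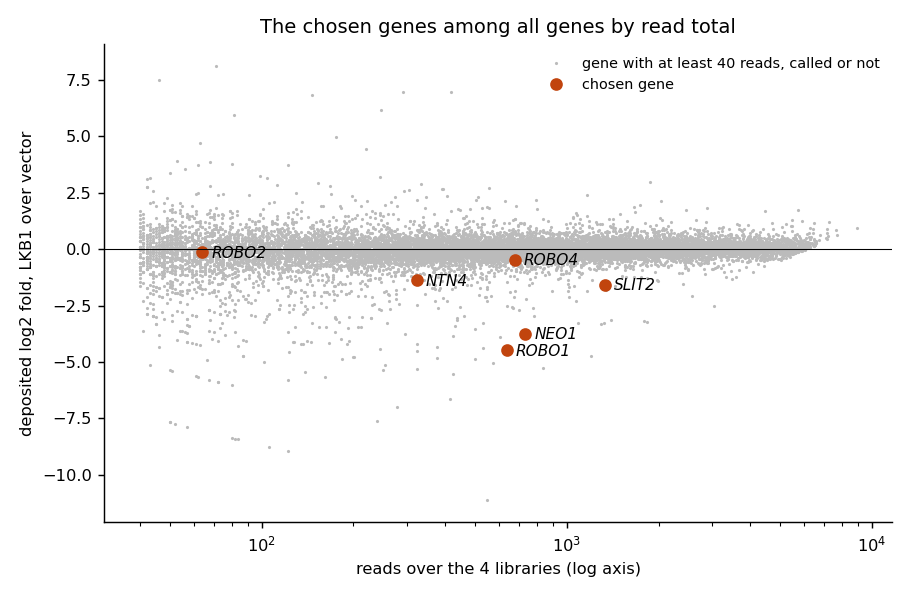
Deposited log2 fold against reads over the 4 libraries (log axis) for every gene with at least 40 reads and a resolved total (grey), with the 6 chosen genes of that depth in orange. ROBO1 and NEO1 lie at the lower edge for their depth, and ROBO2 and ROBO4 lie within the bulk.

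SLIT2 also hosts a microRNA gene, MIR218-1 (chromosome 4, 20529898 to 20530007, plus strand, hg19), whose product miR-218 is known to target ROBO1. It had 0 reads in the vector line against 2 in the LKB1 line, at or under the floor of 3 reads, so no fold is given, and such totals do not measure mature microRNAs. The mature sequence from RefSeq is printed with its seed (bases 2 to 8) in capitals, and the ROBO1 and SLIT2 sites from GENCODE 29 with the seed match in capitals, because the letters occur in both genes of this ligand-receptor pair.
miR-218-5p: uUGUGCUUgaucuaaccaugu
ROBO1 site: tttttggttttaaAAGCACAa
SLIT2 site 1: tgaagacaagcagAAGCACAt
SLIT2 site 2: actaggacataccAAGCACAt

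The seed match AAGCACA was present in the longest annotated 3' untranslated region of 4 of the 10 genes: once in ROBO1 and SLIT3, and 2 times each in ROBO2 and SLIT2. Over 18791 protein-coding genes 14.1% had at least 1, a share not matched for the length of the region. Among the 10 genes that length ran from 1203 bases in ROBO4 to 5253 in DCC. NEO1 and NTN4 had no match. Of the other transcripts inside these genes, SLIT2-IT1 had 4 and 0 reads and the antisense entries of SLIT3, ROBO4 and UNC5B had no reads.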

How the data were processed

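RNA was measured in 2 libraries each of the vector and LKB1 lines. Per the file headers, the authors deposited 4 values per gene: the fold as a ratio, the log2 of that fold, its p-value and an adjusted p-value. Tools listed without roles in the submitters' processing notes are edgeR 2.6.0, TopHat2 2.0.6 and CASAVA 1.8.2, with hg19; counting, strand use and filters: not given in the sources used here. The deposited adjusted p-values matched a Benjamini-Hochberg adjustment over all 34675 genes within 1.9e-06.

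Priors of 0.245 reads (vector) and 0.255 reads (LKB1) in the folds resolved 27452 of 28242 genes with reads (97.2%) into whole totals up to 3000 reads in the vector line; of 14017 distinct folds they resolved 94.4%, and altered priors 1.98% to 2.00%. Ratio intervals are exact 95% (Clopper-Pearson) and cover counting error only; 3 reads is the floor. A conditional negative binomial test with an assumed variation of 0.1, 0.2 or 0.4 was the alternative, tested on simulated data, with unresolved genes entered at 3000 reads. Other alternatives adjusted over genes with at least 40 or 200 reads, or centred the folds. Planned fits on counts per library could not be run, as the table holds none. Exon lengths came from GENCODE 29, as the union of all annotated exons of a gene, whichever transcript is expressed. Ranks and shares between genes per kilobase therefore depend on that annotation as well as on counting. The analysis used Python 3.11.15, scipy 1.17.1 and numpy 2.4.6.

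The genes and lists were chosen with earlier results of these data known. Named were the 10 genes, all but 1 of the pathway genes with an adjusted p under 0.05 (that 1 is not reported here) and every other ligand or receptor of the list; SRGAP1, SRGAP2, SRGAP3, ABL1, ENAH, BMP1, SDC1, FYN, SRC, CDC42, DOCK1, PTK2 and USP44 and the motifs searched were added after values were seen. EGFL7, ERG and FLT1 were likewise named after values were seen. HFE2, PECAM1 and CLDN5 were not analysed here.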

Additional observations from a re-analysis of the deposited data

How the results depend on the processing

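The count of 4 calls among the 10 genes was the same at an assumed variation of 0.1 or 0.2, with adjustment over genes of at least 40 or 200 reads, and after centring, and was 2 at a variation of 0.4. The 16 calls among other pathway genes became 4 at a variation of 0.2 and 1 at 0.4. Of all genes, 5.79% had a call as deposited, 6.92% at a variation of 0.1, 2.51% at 0.2 and 0.767% at 0.4. STK11, at a log2 fold of 0.62, lost its call at 0.2 (adjusted p = 0.551) and at 0.4 (adjusted p = 1). A larger assumed variation raises every p by construction. Of 37 single results, 12 lost their call at 0.2 and 17 at 0.4, and 1, DSCAM, gained a call at 0.1 (adjusted p = 0.0399). Centring shifted folds by under 0.01 and turned no direction. No paired analysis was possible because the table has no value per library, and for the same reason no library was left out. Depth limits NTN1, UNC5B, DCC and SLIT3, with at most 36 reads over the 4 libraries.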

Other observations

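The chosen genes are mostly very long. On hg19, 7 of the 10 span at least 200000 bases from start to end, led by ROBO2 (1743 kb), DCC (1191 kb) and ROBO1 (1171 kb), whereas ROBO4 spans 14.8 kb and the median protein-coding gene with at least 40 reads spans 34.7 kb. Of 1011 protein-coding genes of at least 200000 bases and 40 reads, 163 were called lower (16.1%) and 97 higher (9.59%) in the LKB1 line. Of 11474 shorter genes 748 were called lower (6.52%) and 640 higher (5.58%). The median log2 folds of the long and the shorter genes were 0.02 and -0.03. Calls in both directions were thus a larger share among long genes in these libraries, and the difference in shares was not tested.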
